A study of Mus musculus with 16 samples.

Results

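The libraries described are the 5 with the most and the 5 with the least Adgre1 mRNA among 16 RNA-seq libraries of iWAT, the white fat pad under the skin of the mouse groin. Adgre1 encodes F4/80, the surface protein by which mouse macrophages are usually recognised. The members were chosen by the measured value itself: counts of Adgre1 were divided by the total of each column, given as CPM, the usual scaling of counts to a common library total, and the 5 highest and 5 lowest libraries were taken whatever their genotype. The 16 libraries came from C57BL/6 mice labelled female and 90 days old, 4 of each genotype. The WT mice carried neither mutation, the Lepob/+ mice carried 1 ob allele of the leptin gene, the SOD1-G93A mice carried a mutant human SOD1 transgene used as a model of amyotrophic lateral sclerosis, and the SOD1-G93A Lepob/+ mice carried both. The ob allele is a point mutation that the level of Lep mRNA need not show, so Lep checked no label (181 to 687 CPM over the Lepob/+ libraries and 202 to 681 CPM over WT). Column totals ran from 36.8 to 61.9 M counts. For Adgre1, counting error was small against the spread between libraries. Its 95% Poisson interval was 154 to 162 CPM in Lepob/+ replicate 2 and 27.1 to 30.6 CPM in Lepob/+ replicate 3. Counting error was not computed for other genes. Unless said otherwise, levels are CPM after scaling by TMM, a method that corrects for a few very abundant transcripts, and differences are those of mean log2 CPM.

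Macrophages are the main immune cells of lean fat. They engulf dying cells and lipid, take up iron, make complement and growth factors, and lie along vessels and between adipocytes. They depend on colony stimulating factor 1 and its receptor Csf1r, and their identity genes are driven by the transcription factor PU.1, encoded by Spi1, together with Maf. The inguinal pad also encloses a lymph node and lies against muscle and skin, so that a dissected piece can hold lymphocytes or muscle fibres. In bulk tissue, fewer macrophages and less RNA per macrophage cannot be told apart.

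Several libraries stood apart before any comparison was made. Genes marking the stromal cells of lymph nodes and the high endothelial venules by which lymphocytes enter them had a mean log2 CPM above 2 in 6 libraries: WT replicates 1 and 2, Lepob/+ replicate 3 and SOD1-G93A replicates 1, 2 and 4 (4.64 to 5.595, against -0.69 to 0.16 in the other 10). Of these 6, 4 were among the 5 Adgre1-low libraries and 1 among the 5 Adgre1-high libraries. Lymph node content and Adgre1 thus overlapped in the classes, and their parts in a difference cannot be told apart from all 10 libraries. For this reason 2226 genes were set aside as lymph node genes. Each gene was also compared within the lymph node rich libraries (WT replicate 2 against 4) and within the lymph node poor ones. The latter comparison left out Lepob/+ replicate 4 and set 3 high libraries against WT replicate 3. Lepob/+ replicate 4 held by far the most muscle RNA: 20 skeletal muscle genes summed to 274009 CPM there and to 7163 CPM in WT replicate 3, but to 59.2 to 470.0 CPM in the other 14. Lepob/+ replicate 4 is an Adgre1-high and WT replicate 3 an Adgre1-low library, so the lists are given with and without Lepob/+ replicate 4, and so is each gene whose difference turned or moved by over 1.5 times without it. The library labelled SOD1-G93A Lepob/+ replicate 3, which was not chosen, had 0 counts of Xist and 1756 counts of 4 Y-linked genes, against 11895 to 28034 and 0 in the other 15.

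Adgre1 itself read 158.3, 147.3, 123.9, 115.9 and 97.8 CPM of the column total in Lepob/+ replicate 2, WT replicate 4, WT replicate 2, SOD1-G93A Lepob/+ replicate 2 and Lepob/+ replicate 4. It read 55.7, 46.1, 42.0, 33.6 and 28.8 CPM in SOD1-G93A replicate 2, WT replicate 1, SOD1-G93A replicate 1, WT replicate 3 and Lepob/+ replicate 3. The libraries just outside were Lepob/+ replicate 1 at 97.6 CPM, just below the last one taken, and SOD1-G93A replicate 4 at 58.4 CPM. Ranked by the mean of the markers Adgre1, Csf1r, Mrc1 and C1qa, Lepob/+ replicate 1 would have been taken in place of Lepob/+ replicate 4. After TMM scaling the high libraries read 156, 145, 111, 113 and 147 and the low ones 51.8, 41.7, 39.3, 34.4 and 26.6, which chooses the same 10. Below, values always follow these 2 orders of libraries. Every genotype except SOD1-G93A had a high library, and every genotype except SOD1-G93A Lepob/+ had a low one.

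**Figure D1:**
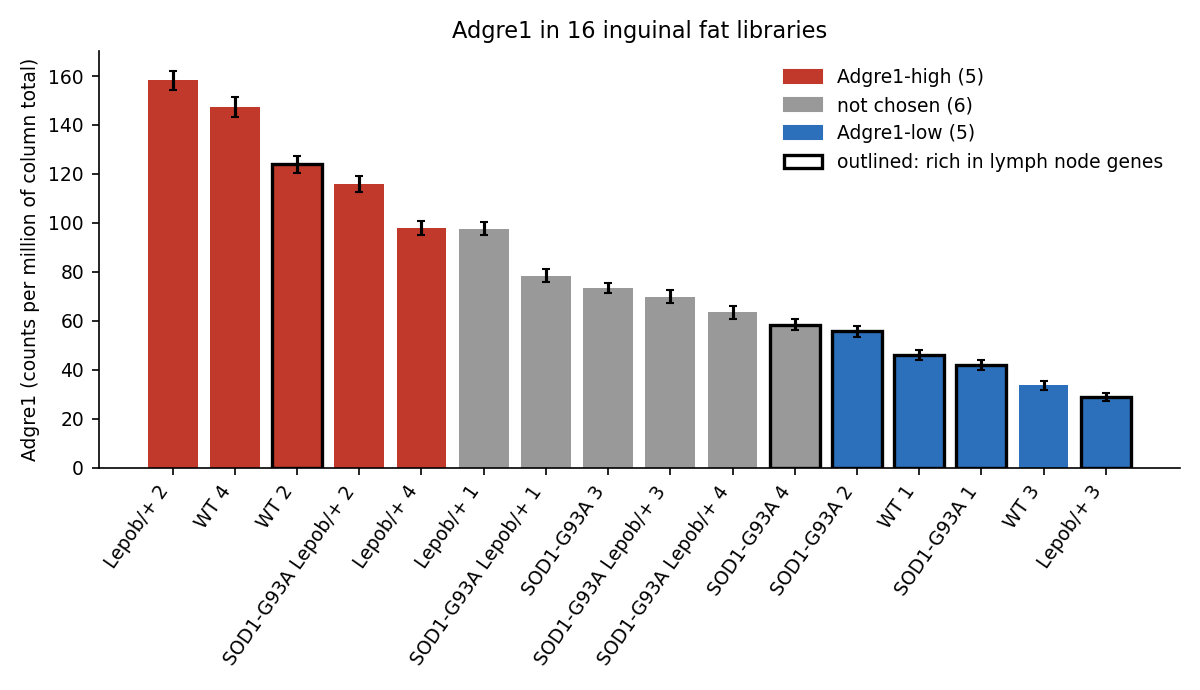
Adgre1 in each of the 16 libraries, in CPM of the column total, ordered from highest to lowest. Bars are coloured by class, whiskers are 95% Poisson intervals that cover counting error only, and black outlines mark the 6 libraries rich in lymph node genes, 4 of which lie among the 5 lowest.

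The promoters of 4 macrophage genes that were higher on average in the Adgre1-high libraries are shown for a DNA motif. The letters GAGGAA, and TTCCTC on the other strand, are the core bound by PU.1 and related ETS factors; matches are in capitals. The sequences are those of RefSeq on GRCm38.p6, from 250 bases before to 50 after the gene's start, written 5′ to 3′ on the gene's own strand.
Mrc1 promoter, chr2:14229164-14229463, plus strand: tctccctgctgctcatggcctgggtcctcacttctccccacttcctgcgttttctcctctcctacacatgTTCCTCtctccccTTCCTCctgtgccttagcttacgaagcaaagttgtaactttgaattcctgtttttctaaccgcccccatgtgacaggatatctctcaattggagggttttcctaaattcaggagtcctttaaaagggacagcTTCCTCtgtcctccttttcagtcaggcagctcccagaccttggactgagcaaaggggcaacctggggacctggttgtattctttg
C1qb promoter, chr4:136886151-136886450, minus strand: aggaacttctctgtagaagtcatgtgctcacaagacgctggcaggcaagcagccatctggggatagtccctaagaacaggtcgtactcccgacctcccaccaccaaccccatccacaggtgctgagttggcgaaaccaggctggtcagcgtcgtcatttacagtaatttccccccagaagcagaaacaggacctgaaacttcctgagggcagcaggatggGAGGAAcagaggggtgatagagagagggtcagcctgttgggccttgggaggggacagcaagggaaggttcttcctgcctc
C1qc promoter, chr4:136892865-136893164, minus strand: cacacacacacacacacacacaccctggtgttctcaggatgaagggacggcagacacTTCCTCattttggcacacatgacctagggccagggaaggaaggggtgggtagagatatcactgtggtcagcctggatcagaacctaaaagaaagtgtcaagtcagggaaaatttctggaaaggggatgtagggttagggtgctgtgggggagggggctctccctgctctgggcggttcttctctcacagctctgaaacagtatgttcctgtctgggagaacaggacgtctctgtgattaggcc
Fcgr1 promoter, chr3:96293920-96294219, minus strand: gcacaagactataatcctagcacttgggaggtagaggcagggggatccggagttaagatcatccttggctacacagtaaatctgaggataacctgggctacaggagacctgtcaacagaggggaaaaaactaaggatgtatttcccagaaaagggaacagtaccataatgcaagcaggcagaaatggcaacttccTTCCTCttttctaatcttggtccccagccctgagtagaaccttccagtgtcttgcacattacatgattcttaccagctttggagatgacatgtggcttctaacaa
The motif was found in 13 of 18 promoters of the macrophage identity genes (72.2%) and in 11 of 19 of the resident macrophage genes (57.9%). Among all genes tested it was found in 4068 of 12959 promoters (31.4%). Only genes with a promoter sequence at hand were counted: 18 of 26 identity genes, 19 of 23 resident ones and 12959 of 19718 in all. Adgre1, Csf1r and C1qa had none, and the 4 promoters shown all hold the motif. A match of 6 letters is a description of the sequence, not a bound site.

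Of the other markers of the rule, Csf1r, the receptor for colony stimulating factor 1, read 661, 677, 453, 494 and 155 CPM in the high libraries and 267, 161, 205, 169 and 174 CPM in the low ones. The other 4 high libraries lay above every low library, and Lepob/+ replicate 4 lay below all of them. The mean was 488 ± 211 CPM (SD, n = 5) against 195 ± 43.4 CPM (n = 5), a log2 difference of 1.18, or 1.55 without Lepob/+ replicate 4. Mrc1, the mannose receptor CD206 of tissue macrophages, read 369.8, 379, 232, 271 and 113 CPM against 151, 63.2, 117, 91.9 and 69.98 CPM. Its values overlapped only through Lepob/+ replicate 4, and the difference was 1.42, or 1.71 without it. C1qa, a chain of the first complement component, read 949.7, 649.8, 497, 578 and 282 CPM against 279, 174, 192, 186 and 174 CPM. Every high library lay above every low library, Lepob/+ replicate 4 by the least, and the difference was 1.47, or 1.71 without it. The 6 libraries not chosen lay between the low libraries and the 4 high ones other than Lepob/+ replicate 4: Csf1r 276 to 439.9, Mrc1 196 to 228 and C1qa 304 to 408 CPM. These values were chosen through Adgre1 and are given as a description, with no test.

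**Figure D2:**
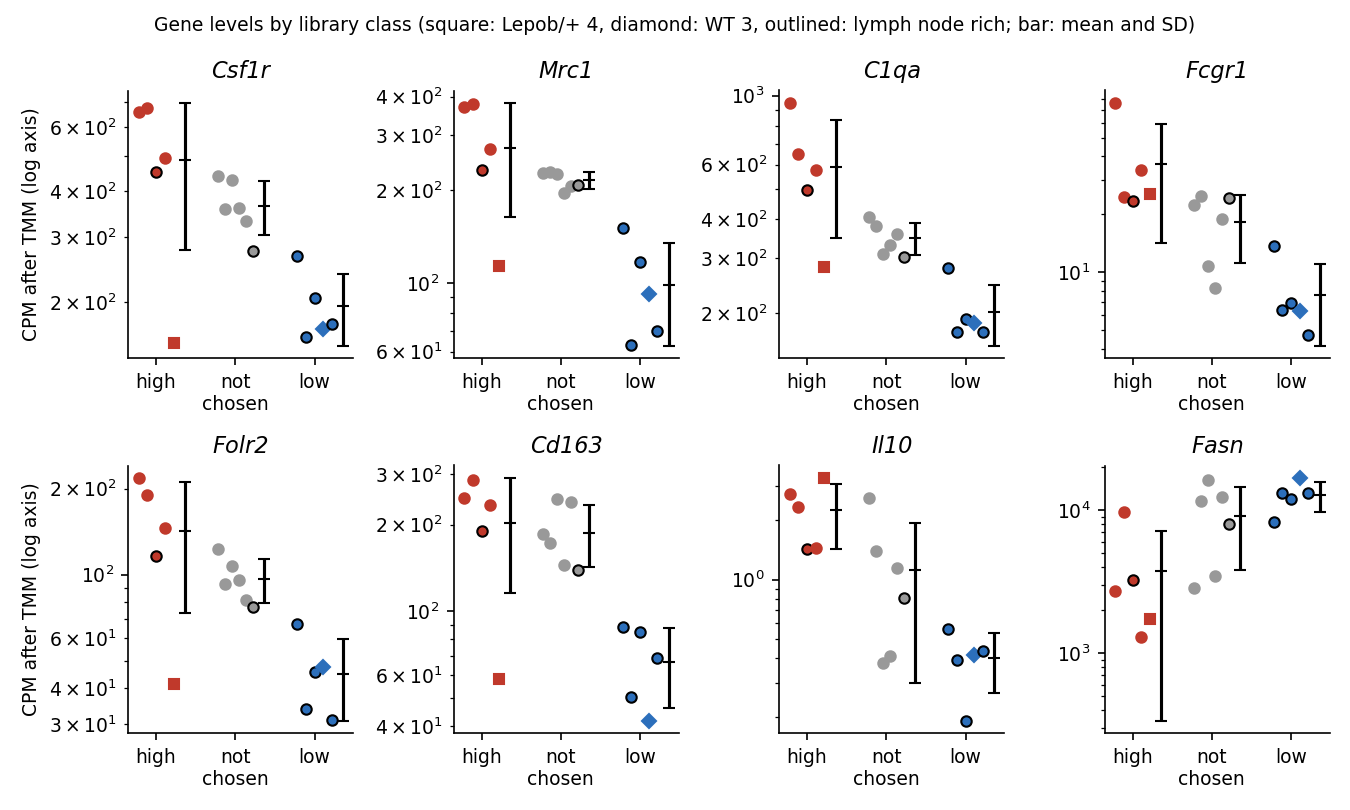
Levels of 8 genes in CPM after TMM scaling (log axis) in the 5 Adgre1-high, 6 other and 5 Adgre1-low libraries, with the mean and SD of each class beside the points. The square, Lepob/+ replicate 4, lies near or below the low libraries for Csf1r, Mrc1, Folr2 and Cd163, but with the high ones for Fcgr1 and Il10.

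Among all 19736 genes measured, 411 were higher in all 5 high libraries than in all 5 low ones (2.08%) and 158 were lower in all 5 (0.801%). Without Lepob/+ replicate 4 these were 1149 (5.82%) and 448 (2.27%). The median difference over all genes was 0.01. Since the libraries were chosen in this contrast, nothing is read from how the lists' counts compare with these shares. A gene higher in all 6 lymph node rich libraries than in the rest could not enter these counts, since each class held libraries of both kinds.

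The macrophage identity list held 26 genes, Adgre1 included, all measured. Of these, 25 had a positive difference and 11 did not overlap, with a median of 1.17. Without Lepob/+ replicate 4, 18 did not overlap, with a median of 1.34. Within both the lymph node rich and the lymph node poor libraries, 19 were higher, against 2029 of all genes (10.3%). The largest difference was that of Fcgr1, the high affinity Fc receptor CD64, at 2.203, with 76.1, 24.5, 23.5, 33.9 and 25.4 CPM against 13.6, 6.39, 6.92, 6.32 and 4.73 CPM. Lepob/+ replicate 2 was highest by far, and SOD1-G93A replicate 2 was the highest of the low libraries. C1qb and C1qc, the other chains of C1q, differed by 1.603 and 1.46, and Fcgr3, a low affinity Fc receptor, by 1.59. Of the transcription factors, Maf differed by 1.23 (174 ± 40.4 against 73.8 ± 16.3 CPM), without overlap. Spi1 differed by 0.78 and overlapped, since SOD1-G93A replicate 2 read 46.9 CPM. The only negative difference was that of Laptm5, a lysosomal protein of all leukocytes, at -0.39 (-0.18 without Lepob/+ replicate 4), and the smallest positive one was that of Cd84, at 0.22 (0.56 without it).

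Genes of resident, vessel-associated macrophages had the largest median of all lists, 1.44 over 23 genes, with 22 positive and 4 without overlap (Cbr2, Cd209f, Pf4 and Gas6). Without Lepob/+ replicate 4 the median was 1.72, with 17 without overlap, and 19 were higher within both kinds of libraries. Fcna, a ficolin that recognises sugars, read 252, 238, 158, 207 and 36.2 CPM against 52.6, 33.5, 61.5, 25.2 and 31.3 CPM. It was high in 4 libraries and low in Lepob/+ replicate 4, and differed by 1.94. Folr2, a folate receptor of resident macrophages, differed by 1.51 (219, 189.6, 116, 146 and 41.4 CPM against 67.1, 33.8, 45.7, 47.7 and 30.95 CPM), or 1.91 without Lepob/+ replicate 4. Cd163, the receptor for haemoglobin bound to haptoglobin, differed by 1.48, and Siglec1, a sialic acid receptor, by 1.903. Lyve1, a hyaluronan receptor also made by lymphatic vessels, differed by 1.73. Timd4, a receptor for dying cells, read 43.5, 26.6, 40.2, 35.03 and 9.62 against 46.9, 34.5, 18.7, 6.17 and 29.1 CPM and overlapped, at 0.31, or 0.68 without Lepob/+ replicate 4. Marco, a scavenger receptor, was the only negative member: it read 0.831, 0.766, 81.9, 1.32 and 23.3 CPM against 62.7, 72.9, 13.98, 0.697 and 48.2 CPM, above 10 CPM in WT replicate 2, Lepob/+ replicate 4 and the 4 lymph node rich low libraries.

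**Figure D3:**
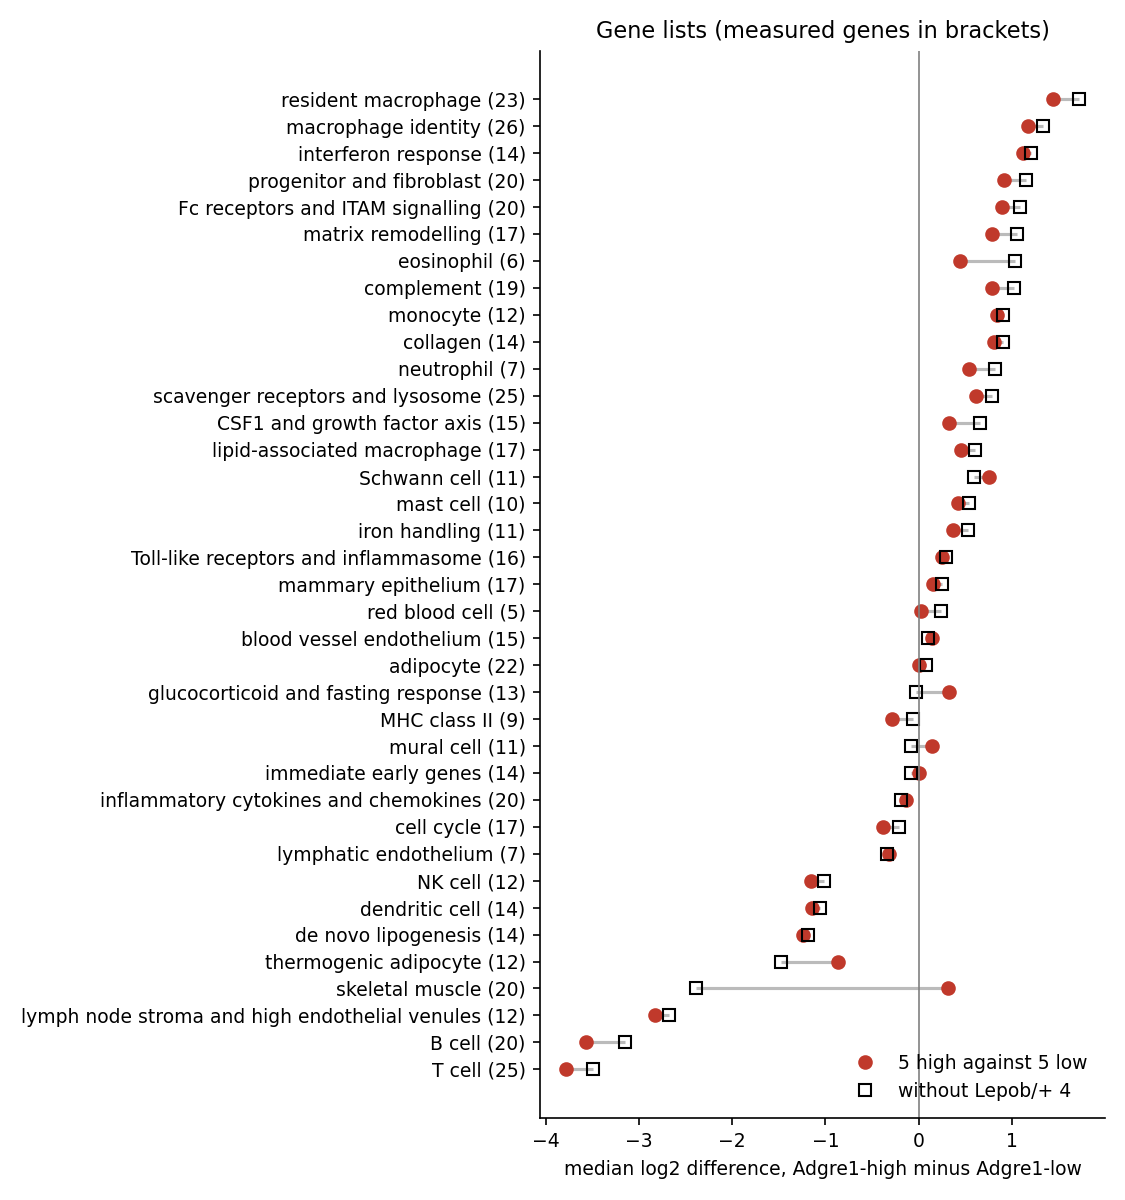
Median log2 difference between Adgre1-high and Adgre1-low libraries for each of 37 gene lists, over the 5 and 5 libraries (red points) and without Lepob/+ replicate 4 (open squares), with the number of measured genes in brackets. The resident macrophage and macrophage identity lists lie at the top, at 1.44 and 1.17, and the T cell, B cell and lymph node lists at the bottom, while skeletal muscle shifts most when Lepob/+ replicate 4 is left out.

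Genes of lipid-associated macrophages, which gather around dying adipocytes in obesity, differed less: the median was 0.45 over 17 genes, with 13 positive and 1 without overlap (Atp6v0d2, a subunit of the lysosomal proton pump). The median without Lepob/+ replicate 4 was 0.602 and 4 did not overlap. Trem2, the lipid receptor that marks these cells, read 17.9, 12.8, 6.26, 9.89 and 2.93 CPM against 2.93, 2.25, 3.75, 4.18 and 2.28 CPM. It was low in Lepob/+ replicate 4 and differed by 1.49. Gpnmb, a lysosomal glycoprotein, differed by 0.92 and Spp1, osteopontin, by 1.32, both with overlap. Plin2 and Mmp12 differed least, by -0.06 and -0.01, or 0.08 and 0.05 without Lepob/+ replicate 4. Of 12 monocyte genes 9 were positive, with a median of 0.83 and none without overlap, whereas without Lepob/+ replicate 4 the median was 0.91, 4 were higher and 1 lower without overlap. Ccr2, the receptor that brings monocytes into tissue, differed by 1.17, and Ly6c2, a marker of classical monocytes, by -0.02 (0.11 without Lepob/+ replicate 4).

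Complement genes were positive in 17 of 19, with a median of 0.79 and 4 without overlap, or 1.03 and 11 without Lepob/+ replicate 4. C3ar1, the receptor for the fragment C3a, read 84.7, 65.8, 53.3, 61.2 and 43.4 CPM against 22.4, 14.2, 16.3, 14.3 and 10.4 CPM. It separated the classes fully, in a 3.996-fold difference of geometric means. C4b differed by 1.23, overlapping only through Lepob/+ replicate 4, and C3 by 0.47, or 0.77 without that library. The list of Fc receptors and their signalling adaptors was positive in 15 of 20, with a median of 0.89 and 5 without overlap, or 1.08 and 11 without Lepob/+ replicate 4. Fcgr4, an activating Fc receptor, read 24.9, 6.898, 14.1, 14.8 and 21.3 CPM against 5.395, 3.57, 3.17, 2.504 and 1.36 CPM, so that the lowest high library (WT replicate 4) lay just above the highest low one, and differed by 2.36. Fcer1g, the signalling chain shared by these receptors, differed by 1.31, and Syk, the kinase below it, by -0.199 (-0.0037 without Lepob/+ replicate 4). Fc receptor genes lie close together and resemble each other, so reads of one may have been lost or shared in the counting of unique matches.

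Scavenger receptors and lysosomal genes were positive in 24 of 25, with a median of 0.62 and 4 without overlap: Lgmn, a protease, Grn, progranulin, and the membrane proteins Lamp2 and Scarb2. Without Lepob/+ replicate 4 the median was 0.79 and 14 did not overlap. Of 11 genes for iron handling all were positive, with a median of 0.37 and 2 without overlap, whereas 10 were positive without Lepob/+ replicate 4, with a median of 0.53 and 4 without overlap. Hmox1, which breaks down haem, read 123, 102, 78.8, 97.4 and 59.9 CPM against 48.9, 41.8, 43.9, 43.8 and 32.9 CPM without overlap, and Slc11a1, which moves iron out of the phagosome, differed by 1.11. Slc40a1, the iron exporter ferroportin, differed by 0.47 with overlap.

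The CSF1 and growth factor list was positive in 9 of 15, with a median of 0.32 and 2 without overlap, or 0.66 and 3 without Lepob/+ replicate 4. Il10, an anti-inflammatory cytokine, read 2.74, 2.33, 1.43, 1.45 and 3.295 CPM against 0.564, 0.392, 0.192, 0.413 and 0.437 CPM, and Lepob/+ replicate 4 was the highest of all. The classes did not overlap and differed by 2.42. Csf1, the growth factor itself, differed by 0.84 (136 ± 31.7 against 76.9 ± 22.1 CPM) and Il34, its alternative ligand, by 0.53, both with overlap. Toll-like receptor and inflammasome genes were positive in 13 of 16, with a median of 0.25 (0.29 without Lepob/+ replicate 4). Tlr8, Tlr13, Tlr2 and Cd14 did not overlap, with Tlr8 and Tlr13, sensors of RNA, at 1.67 and 1.29.

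Inflammatory cytokines and chemokines split evenly, 10 of 20 positive, with a median of -0.14 (-0.19 without Lepob/+ replicate 4). Without overlap there was 1 (Ccl6), and 3 without that library. Ccl6, a chemokine, read 902, 607, 351, 389 and 194 CPM against 172, 86.5, 120.5, 108 and 87.2 CPM without overlap. Ccl9 differed by 1.66 and Ccl8 by 1.89. Il1a, Ccl5 and Tnf were lower, by -3.35, -3.32 and -1.95. Tnf read 0.293, 1.72, 4.23, 1.198 and 1.298 CPM against 11.9, 5.26, 7.07, 0.826 and 8.52 CPM, highest in the lymph node rich libraries WT replicate 2 and the 4 low ones. The interferon response list was positive in 13 of 14, with a median of 1.11 (1.200 without Lepob/+ replicate 4) and none without overlap either way. Within the lymph node poor libraries, 3 against 1, all 14 were higher (33.7% of all genes were). Within the rich ones, 1 against 4, 1 of 14 was higher (21.5% of all genes). So 1 of 14 was higher within both kinds of libraries (10.3% of all genes). Isg15, a protein conjugated to others under interferon, read 100.03, 22.97, 25.4, 53.9 and 46.5 CPM against 60.9, 12.3, 12.4, 13.5 and 7.72 CPM, and SOD1-G93A replicate 2 was the exception among the low libraries. None of the 9 MHC class II genes was positive over the 5 and 5 libraries (median -0.28), and 3 were positive without Lepob/+ replicate 4 (median -0.07). In the lymph node poor libraries without Lepob/+ replicate 4, all 9 correlated positively with Adgre1 (median Pearson r 0.66). In the lymph node rich ones 4 did (median -0.10).

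Genes of progenitors and fibroblasts were positive in 17 of 20, with a median of 0.92 and 3 without overlap. Without Lepob/+ replicate 4 the median was 1.15 and 10 did not overlap, and 11 were higher within both kinds of libraries. Pdgfra, the receptor that marks adipocyte progenitors, read 200.3, 161, 126, 167 and 105 CPM against 84.4, 80.4, 88.7, 85.2 and 83.5 CPM. The low libraries lay within a narrow range, and the difference was 0.81. Dpp4, a marker of early progenitors, differed by 1.04 and Pi16, another, by 1.28, with overlap through Lepob/+ replicate 4 and through WT replicate 2. All 14 collagen genes were positive, with a median of 0.80, and Col1a2 did not overlap, while 4 did not without Lepob/+ replicate 4 (median 0.90). Matrix remodelling genes were positive in 15 of 17, with a median of 0.79 and none without overlap. The latter rested on Lepob/+ replicate 4, without which 16 were positive and 8 did not overlap, with a median of 1.05.

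Of 22 adipocyte genes 11 were positive, with a median of 0.00 and none without overlap, or 15 and 0.08 without Lepob/+ replicate 4. Adipoq, adiponectin, differed by 0.19 (0.300 without it). The kinds of libraries differed here. In the lymph node poor ones without Lepob/+ replicate 4, 0 of 22 correlated positively with Adgre1 (median Pearson r -0.61). In the rich ones 14 did (median 0.16). The genes of de novo lipogenesis, the making of fatty acids from glucose, were negative in 14 of 14, with a median of -1.24 (13 of 14 and -1.18 without Lepob/+ replicate 4), and 11 were lower within both kinds of libraries, against 2055 of all genes (10.4%). Fasn, fatty acid synthase, read 2727, 9671, 3278, 1288 and 1743 CPM against 8282, 13309, 12098, 16939 and 13313 CPM. WT replicate 4 read within the low range, and the difference was -2.12. Acly, which makes acetyl-CoA from citrate, differed by -2.28 and Elovl6, an elongase, by -2.39, both overlapping through WT replicate 4. Only Scd1, a desaturase, did not overlap, at -0.74. Thermogenic genes were positive in 2 of 12, with a median of -0.87, or 1 and -1.47 without Lepob/+ replicate 4. Cidea, a lipid droplet protein of beige and brown adipocytes, read 16.95, 14.8, 16.1, 7.77 and 4.76 CPM against 26.5, 31.1, 72.01, 40.5 and 196 CPM without overlap. Ucp1, the uncoupling protein, read 1.91, 3.25, 1.48, 0.175 and 0.832 CPM against 7.22, 2.56, 75.5, 1.94 and 312 CPM, and SOD1-G93A replicate 1 and Lepob/+ replicate 3 stood above the rest, for a difference of -3.81.

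**Figure D4:**
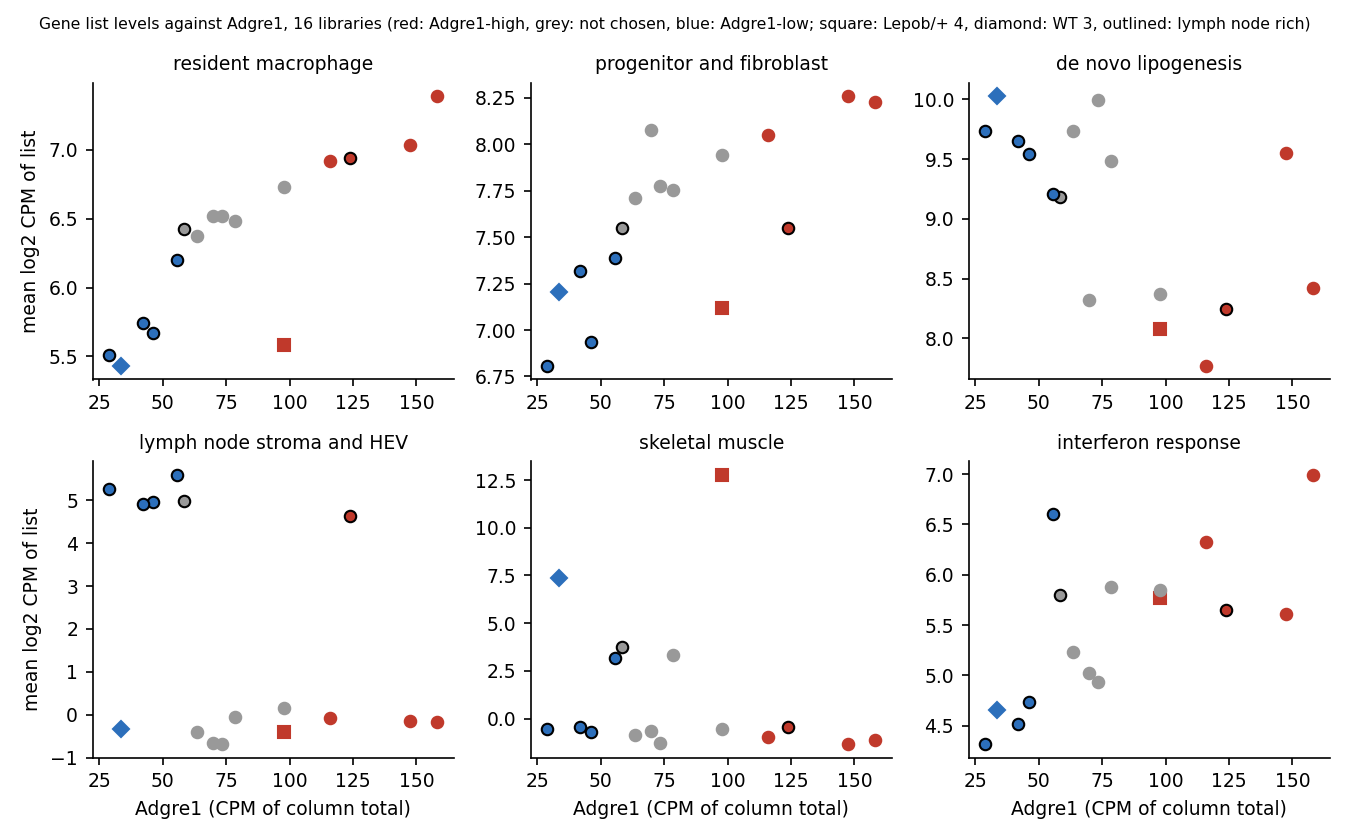
Mean log2 CPM of 6 gene lists against Adgre1 in CPM of the column total in all 16 libraries. Resident macrophage levels are higher where Adgre1 is higher except in Lepob/+ replicate 4 (square), progenitor levels likewise with more scatter, de novo lipogenesis runs lower in 4 of the 5 high libraries, and the lymph node list falls into 2 levels.

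Lists of other cell types differed in the same contrast. None of 25 T cell genes was positive (median -3.78), their summed level running from 33.6 to 1210 CPM in the high and from 40.2 to 2454 CPM in the low libraries, and 1 of 20 B cell genes was positive (median -3.56). Of 12 NK cell genes none was positive (median -1.15), and of 14 dendritic cell genes 4 were (median -1.14). Skeletal muscle had a median of 0.31, or -2.39 without Lepob/+ replicate 4. The medians of T cell, B cell, NK cell and dendritic cell genes were -3.49, -3.15, -1.02 and -1.06 without that library, and that of the lymph node list itself went from -2.83 to -2.68. The glucocorticoid and fasting response turned from 0.32 to -0.03 (10 and then 5 of 13 positive), mural cells from 0.14 to -0.08 and immediate early genes from 0.00 to -0.08 when it was left out. Eosinophil genes had a median of 0.44 over 6, which was 1.04 without it, neutrophil genes 0.54 over 7 (0.82), mast cell genes 0.42 over 10 (0.53) and Schwann cell genes 0.76 over 11 (0.59). Endothelium of blood vessels had 0.14 (0.099), lymphatic endothelium -0.32 (-0.34), mammary epithelium 0.15 (0.25), red blood cells 0.02 (0.24) and cell cycle genes -0.39 (-0.21), with the value without Lepob/+ replicate 4 in brackets. In the lymph node poor libraries without Lepob/+ replicate 4, all 17 cell cycle genes correlated positively with Adgre1 (median Pearson r 0.53). In the lymph node rich ones 2 did (median -0.37). The part of these cells and states in the macrophage differences was not tested. Within the lymph node poor libraries WT replicate 3 was the only low one. There 6650 of all genes (33.7%) were higher in the 3 high libraries other than Lepob/+ replicate 4. Within the lymph node rich ones 4238 (21.5%) were higher in WT replicate 2.

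Whether in a list or not, 377 genes with a mean of at least 1 CPM were higher without overlap, Adgre1 included, and 121 were lower. None of them was set aside as a lymph node gene. For 2218 of the 2226 genes set aside this was fixed in advance, as noted above, so it says nothing about the part of lymph node content in these differences. The largest positive differences after those named were Fpr2, a receptor for bacterial and host peptides, at 2.99, and Kctd12 at 2.97. Fpr2 was low throughout, with 3.102, 1.37, 1.43, 1.85 and 10.3 CPM against 0.429, 0.454, 0.341, 0.206 and 0.194 CPM. Kctd12 read 145, 187, 155, 130.4 and 140.1 CPM against 128, 83.1, 103, 0 and 104 CPM, so its difference rested on WT replicate 3 at 0 and was 0.54 without that library. After Gm16118 (2.102) came Ms4a6d, a macrophage membrane protein (2.004), C7, a terminal complement component (1.99), Slc13a3, a dicarboxylate carrier (1.97), and Aoah, which inactivates bacterial lipopolysaccharide (1.91). Fcrls, Wfdc17 and Kirrel differed by 1.903, 1.89 and 1.87. The largest negative differences after Cidea were Igfbp2, a binding protein of insulin-like growth factors (-1.75), Cramp1l (-1.73) and Ppara, a nuclear receptor of fatty acid oxidation (-1.47). Igfbp2 read 0.513, 2.405, 2.18, 0.524 and 2.13 CPM against 6.005, 3.71, 5.37, 2.79 and 4.32 CPM. After Ppara came Gm3739 (-1.45), Mgst2, a glutathione transferase (-1.39), AC102496.1 (-1.34), Alkbh4 (-1.18), Sbk1 (-1.12) and Sorl1 (-1.11). Recql4 and Scd3 each differed by -1.07, Aacs and Gm6123 each by -1.02, and Cenps by -0.96. Of these, Scd3 and Aacs are genes of lipid synthesis.

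Over the 16 libraries, the genes whose log2 CPM were most like Adgre1 were C3ar1 (Pearson r 0.96), Clec4a1 (0.94), Hk3 (0.94), Igsf6 (0.94), P4ha1 (0.94), Aoah (0.94), Lrrc25 (0.94), Snap23 (0.92), Creg1 (0.92) and Fcer1g (0.92). In all, 18 genes with a mean of at least 1 CPM had r over 0.9. These points share libraries, scaling and the lymph node content above, and r is a description. Without Lepob/+ replicate 4, Csf1r reached 0.97, C1qc 0.97, Folr2 0.97 and Cd68, a lysosomal protein of macrophages, 0.96, against 0.71, 0.87, 0.76 and 0.76 with it.

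The 6 libraries that the rule did not take allowed a test of the same question, with no term for genotype. Adgre1 and genotype cannot be told apart in it, since Lepob/+ replicate 1 was highest and SOD1-G93A replicate 4 lowest. The others were SOD1-G93A replicate 3 and SOD1-G93A Lepob/+ replicates 1, 3 and 4, with no WT library. There Adgre1 ran from 58.4 to 97.6 CPM of the column total, and the slope of each gene's log2 level on log2 Adgre1 was tested with edgeR's quasi-likelihood F test, two-sided and adjusted by Benjamini-Hochberg over the 19734 genes tested. No gene passed an adjusted p under 0.05 (0%), 561 had a positive and 980 a negative slope at an unadjusted p under 0.05 (2.84% and 4.97%), and DESeq2 called 132. Of 25 macrophage identity genes 19 had a positive slope, with a median of 0.35 and 2 at an unadjusted p under 0.05. Of 23 resident macrophage genes 20 were positive, with a median of 0.72, 4 of them at an unadjusted p under 0.05. Without SOD1-G93A replicate 4, the only lymph node rich library of the 6, 22 identity and 20 resident genes were positive, with medians of 0.51 and 0.34, and with the lymph node score as a covariate the medians were 0.49 and 0.35. The median over all genes was -0.04 (-0.02 without that library and -0.03 with the covariate). Folr2 had a slope of 0.86 (SE 0.24), with an unadjusted p of 0.0102 and an adjusted p of 0.638 by edgeR. Csf1r had 0.79 (SE 0.32) with an unadjusted p of 0.0482, C3ar1 0.75 (SE 0.28) with 0.0365 and Cd68 0.64 (SE 0.23) with 0.0287 in the same edgeR test, and none passed adjustment. C1qa had 0.48 (SE 0.28) and Mrc1 0.22 (SE 0.24), at unadjusted p of 0.138 and 0.391 by edgeR. Complement genes were positive in 15 of 19 (median 0.75), progenitor genes in 16 of 20 (median 0.66), and de novo lipogenesis genes in 3 of 14 (median -1.10, none at an unadjusted p under 0.05). Without SOD1-G93A replicate 4 these were 16 (median 0.498), 14 (median 0.12) and 0 (median -1.92), and the progenitor median was 0.23 with the covariate. Fc receptor genes were positive in 7 of 20 (median -0.29), which was 13 of 20 (median 0.22) without SOD1-G93A replicate 4. Iron handling genes were positive in 10 of 11 (median 0.33). This was 3 of 11 without that library (median -0.18) and 5 of 11 with the covariate (median -0.12). Collagen genes, positive in 13 of 14 (median 0.73), were positive in 5 of 14 without that library (median -0.05). Adipocyte genes, positive in 19 of 22 (median 0.72), were positive in 10 of 22 without it (median -0.01). Interferon response genes were positive in 12 of 14 (median 0.47). They were positive in 14 of 14 without SOD1-G93A replicate 4 (median 1.27) and with the covariate (median 1.14). Without the library labelled SOD1-G93A Lepob/+ replicate 3, identity and resident genes were again positive in 19 and 20.

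**Figure D5:**
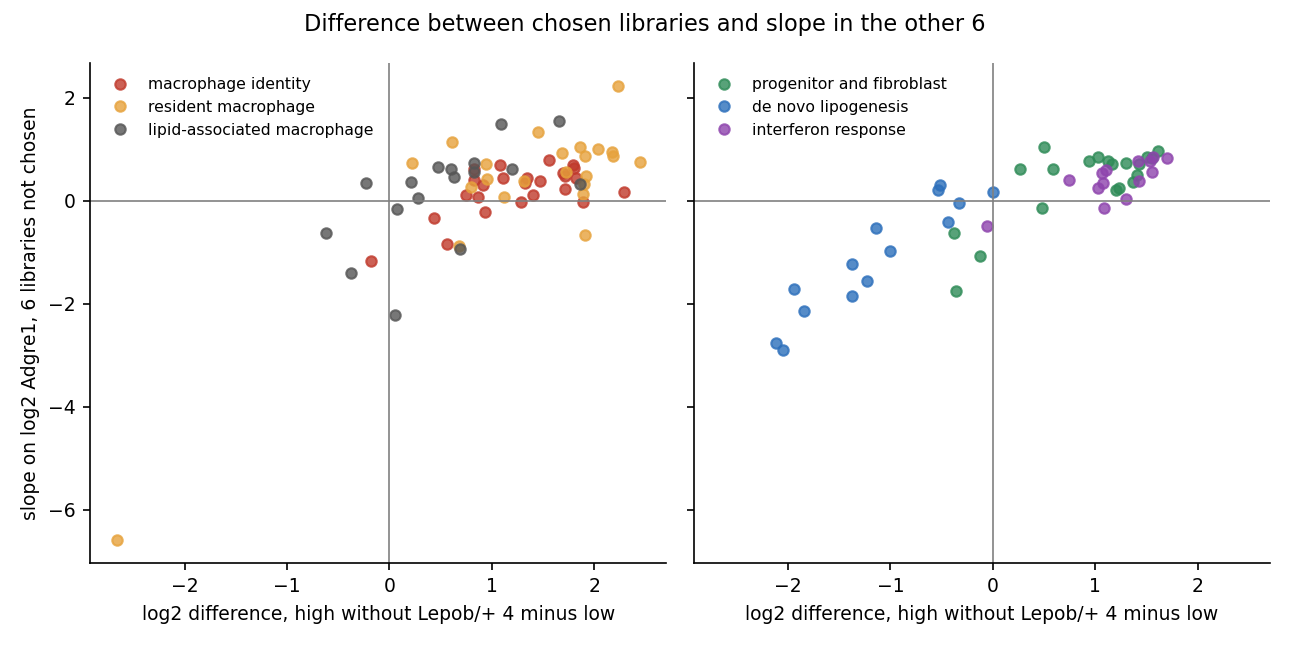
Each point is 1 gene: on the x axis its log2 difference between the Adgre1-high libraries without Lepob/+ replicate 4 and the Adgre1-low ones, on the y axis its slope on log2 Adgre1 in the 6 libraries not chosen. Most macrophage genes lie above 0 on both axes (left), with Marco far below 0 on both, and most genes of de novo lipogenesis below 0 on both (right), but no slope passed an adjusted p under 0.05.

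The smallest unadjusted p-values of positive slopes were those of Trib3 (0.000557, slope 2.19 (SE 0.34)), Gm43618, Chac1, Phkg1 and 2900052L18Rik in the edgeR test, all with an adjusted p of 0.638. Trib3 and Chac1 belong to the response to amino acid shortage. The smallest of negative slopes were those of Tspan10, Trbv16, 4930417O13Rik, Art2a-ps and Trbv29. Tspan10 had an adjusted p of 0.0565 by edgeR, was set aside as a lymph node gene and was near 0 in all but the lymph node rich libraries.

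By genotype, Adgre1 read 83.0 ± 53.8 CPM in WT, 106.9 ± 59.5 in Lepob/+, 56.0 ± 16.3 in SOD1-G93A and 82.1 ± 21.2 in SOD1-G93A Lepob/+ (SD, n = 4 each). The ranges of all 4 overlapped. The log2 fold change was 0.37 (SE 0.51) for Lepob/+ against WT, -0.57 (SE 0.51) for SOD1-G93A against WT and 0.55 (SE 0.51) for SOD1-G93A Lepob/+ against SOD1-G93A. Their unadjusted p-values were 0.483, 0.283 and 0.295 in edgeR's quasi-likelihood test over all 16 libraries, with adjusted p of 1, 0.998 and 0.589. The first turned to -0.0989 without Lepob/+ replicate 4 and WT replicate 3 (unadjusted p of 0.859 by edgeR), and the third to -0.0882 with the lymph node score as a covariate (unadjusted p of 0.881 by edgeR). No gene passed an adjusted p under 0.05 in any of the 3 comparisons (0%), while 862 (4.37%), 505 (2.56%) and 3261 (16.5%) had an unadjusted p under 0.05, and DESeq2 over all libraries called 3, 4 and 541. Of the 26 macrophage identity genes, 19, 5 and 19 had a positive fold change, with medians of 0.11, -0.23 and 0.38. The interaction of both mutations on Adgre1 was 0.19 on the log2 scale, with an unadjusted p of 0.798 by edgeR, and 0 genes passed adjustment.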

How the data were processed

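RNA of the inguinal fat of 16 mice was sequenced as mRNA libraries. The deposited values are raw counts per Ensembl gene, made by the authors: per the labels and the study's methods, low-quality and short reads were removed with fastp, the rest aligned to mm10 with HISAT2 2.1.0, and unique matches counted with featureCounts 2.0.2. The strand setting and annotation release are not given in the sources used here, and the sources name different library kits. Of 54752 IDs, 54723 had a symbol.

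The analysis ran in R 4.3.3 and used edgeR 4.0.16 (filterByExpr, min.count 10 and min.total.count 15; TMM; prior count 1 on the log2 scale). The members, the 37 gene lists (539 genes) and the tests were chosen with earlier results of these data known. High against low libraries are described without a test. Genes were set aside as lymph node genes when listed as such or when all 6 lymph node rich libraries (mean log2 CPM above 2) lay above all others. Genes named are the 4 markers, up to 4 members of each list by size of difference and up to 2 of the smallest in macrophage lists, the 15 largest differences in each direction without overlap and with a mean of at least 1 CPM, the 10 most like Adgre1, and the 5 smallest p of the slope in each direction; other genes were chosen after their values were seen, and 1 listed gene is not reported here by name. The slope in the 6 libraries not chosen and 3 genotype comparisons used robust quasi-likelihood tests with Benjamini-Hochberg adjustment at 0.05. Scripts were tested on simulated data. Alternatives were another scaling, filters, numbers of libraries and markers, DESeq2 1.42.0, limma 3.58.1 voom weights, and each library left out; those without both muscle-rich libraries or within lymph node rich ones were added after the data were seen. Same-numbered libraries of different genotypes showed no consistent pairing. Of 24 pairs, 5 had a correlation of deviations over 0.1 and 8 under -0.1 (range -0.69 to 0.52).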

Additional observations from a re-analysis of the deposited data

Results flagged for a closer look

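In 49 groups of 4 to 6 libraries examined, a single library lay far from the rest in 3, and chance sets apart about 1 in 20 groups. Among the Adgre1-low libraries, C1qa read 279.4 CPM in SOD1-G93A replicate 2 and 174 to 191.7 CPM in the other 4, a gap of 0.831 of the group's range. The mean log2 CPM of the interferon response list was 6.598 in the same library and 4.315 to 4.738 in the other 4, a gap of 0.815. Among the Adgre1-high libraries, the mean log2 CPM of the resident macrophage list was 5.582 in Lepob/+ replicate 4, which is rich in muscle transcripts, and 6.92 to 7.385 in the other 4, a gap of 0.742.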

How the results depend on the processing

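The medians of the macrophage identity, resident macrophage, progenitor and lipogenesis lists kept their direction under every alternative run for the contrast of high and low libraries. The numbers of genes without overlap, 411 higher and 158 lower, did not. They were 147 higher with column totals, 1526 and 651 for 4 against 4 libraries and 240 and 98 for 6 against 6. With the mean of the 4 markers they were 1028 and 345. In lymph node poor libraries, here with Lepob/+ replicate 4 included, they were 4133 and 3394, and in lymph node rich ones 4238 and 5331. Without both muscle-rich libraries they were 2339 and 2749 (4 against 4) or 1732 and 2179 (5 against 5 of 14). Leaving out 1 library gave 447 to 1317 higher and 193 to 2040 lower: WT replicate 3 gave 1317 and 2040, Lepob/+ replicate 4 1149 and 448, WT replicate 2 734 and 558, SOD1-G93A replicate 2 667 higher and WT replicate 4 286 lower. Fewer libraries make non-overlap easier by construction; other causes were not tested.

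The slope called 0 genes, but 2 without the filter, 132 with DESeq2 and 0 to 1 with 1 library left out (1 without Lepob/+ replicate 1 or SOD1-G93A Lepob/+ replicate 1). For Lepob/+ against WT, SOD1-G93A against WT and SOD1-G93A Lepob/+ against SOD1-G93A, 0 genes were called, but DESeq2 called 5, 14 and 1771 on the compared genotypes alone and 3, 4 and 541 over all libraries. The third comparison gave 2 by edgeR on its genotypes alone, 6254 by limma voom with quality weights and 0 to 3 with 1 library left out (3 without SOD1-G93A Lepob/+ replicate 3); the second gave 0 to 1 (1 without SOD1-G93A replicate 4). The fold change of Adgre1 turned from 0.55 to -0.0882 (p 0.881 by edgeR) in the third with the lymph node score as a covariate, and from 0.37 to -0.0989 (p 0.859 by edgeR) for Lepob/+ against WT without both muscle-rich libraries; the cause was not tested. With the replicate number as a block, 0 genes were called in all 3. The log2 fold changes of Adgre1 were then 0.40, -0.31 and 0.48. The numbers showed no consistent pairing of the samples.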
